A study of Homo sapiens with 18 samples.

Results

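The genes described here are the protein-coding genes of the human histone clusters, taken as every protein-coding row of the GENCODE release 29 annotation whose symbol begins with HIST1H, HIST2H, HIST3H or HIST4H. The rule gives 71 of the 58051 gene identifiers counted. They comprise 6 genes of the linker histone H1 and 17 H2A, 18 H2B, 15 H3 and 15 H4 genes. The HIST1 cluster on chromosome 6 holds 55 of them, HIST2 on chromosome 1 holds 12, HIST3 on chromosome 1 holds 3, and HIST4 on chromosome 12 holds 1.

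The cells were KBM7, an established line from a human chronic myelogenous leukaemia, treated for 5 h in 6 groups of 3 libraries. Each of dCeMM-1 to dCeMM-4 was used at 10 times its own EC50, THZ531 at a fixed 600 nM, and DMSO, the solvent, alone. All groups shared the line and the medium. From published work, dCeMM-2 to dCeMM-4 degrade cyclin K, dCeMM-1 degrades RBM39, which acts in splicing, and THZ531 inhibits the cyclin K partners CDK12 and CDK13. Nothing in the labels says that the libraries of a group are separate cultures, so p-values measure the spread between these libraries, which may be technical.

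Histone proteins package DNA: an octamer of H2A, H2B, H3 and H4 forms the nucleosome core, and H1 binds the linker DNA between cores. Most clustered histone genes are replication-dependent. Their mRNAs are made in S phase, have no introns, and end after a short stem-loop instead of in a poly-A tail; SLBP binds the stem-loop, and the U7 snRNP with CPSF2 and CPSF3 makes the cut behind it. When that processing is bypassed, RNA polymerase II can read on to a downstream poly-A signal, and some clustered genes also make polyadenylated mRNA in non-dividing cells. Poly-A RNA was enriched before sequencing, so the counts of these genes stand for poly-A forms and whatever other histone mRNA passed the enrichment, which cannot be told apart. Reads placed at several positions were not counted, which touches genes with near-identical copies.

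The stem-loop is shown first because it divides these mRNAs from others in a poly-A library. Within 150 bases after the annotated coding sequence, 32 members held a match to the histone stem-loop pattern, in 6 distinct sequences of 16 bases. It began 22 to 67 bases after the stop codon, with a median of 35.5. The annotation of another 35 members stops at the stop codon, so their 3′ parts could not be searched. One member of each distinct sequence is given here from the GENCODE 29 transcripts, with the 16 stem-loop bases in capitals and up to 5 flanking bases on each side in lower case.
HIST2H2BE: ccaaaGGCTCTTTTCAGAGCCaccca
HIST4H4: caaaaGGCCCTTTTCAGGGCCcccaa
HIST1H3G: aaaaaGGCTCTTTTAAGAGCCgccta
HIST1H4I: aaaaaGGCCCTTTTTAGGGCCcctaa
HIST1H3E: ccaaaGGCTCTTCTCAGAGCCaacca
HIST1H2AG: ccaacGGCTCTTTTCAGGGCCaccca
The form shown for HIST2H2BE occurred in 17 members of classes H2A, H2B and H3. The form of HIST4H4 occurred in 5 members, all H4 genes, and that of HIST1H4I in 3, also H4 genes. HIST1H3G shared its form with 4 others, HIST1H2BC, HIST1H2BD, HIST1H2BF and HIST3H3. HIST1H3E and HIST1H2AG each had a form of their own. The annotation of HIST2H2BE ran on for 1729 bases beyond the stem-loop, that of HIST1H3G for 1518 bases and that of HIST4H4 for 169 bases.

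RefSeq promoters of build GRCh38.p14, from 250 bases before to 50 bases after the gene start, matched 61 of the 71 genes. The 3 shown belong to HIST4H4, HIST1H3G and HIST2H2BE, which were called higher on both scales described below with several compounds, and they are printed 5′ to 3′ on the strand of the gene. Capitals mark 3 motifs on either strand, the TATA box TATAAA, the CCAAT box and the octamer ATGCAAAT.
HIST4H4 (chr12:14771082-14771381, minus strand): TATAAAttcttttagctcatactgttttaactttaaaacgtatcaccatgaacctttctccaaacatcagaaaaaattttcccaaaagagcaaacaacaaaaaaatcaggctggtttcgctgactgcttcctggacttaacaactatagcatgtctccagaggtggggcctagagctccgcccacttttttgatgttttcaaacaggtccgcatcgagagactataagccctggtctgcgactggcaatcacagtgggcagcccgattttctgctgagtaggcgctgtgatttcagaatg
HIST1H3G (chr6:26271364-26271663, minus strand): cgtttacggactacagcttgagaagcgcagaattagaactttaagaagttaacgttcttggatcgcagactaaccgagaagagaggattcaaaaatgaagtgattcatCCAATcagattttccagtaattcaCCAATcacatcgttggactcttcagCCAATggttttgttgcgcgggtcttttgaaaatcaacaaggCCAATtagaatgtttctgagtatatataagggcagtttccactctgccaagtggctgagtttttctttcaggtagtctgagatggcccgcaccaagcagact
HIST2H2BE (chr1:149886633-149886932, minus strand): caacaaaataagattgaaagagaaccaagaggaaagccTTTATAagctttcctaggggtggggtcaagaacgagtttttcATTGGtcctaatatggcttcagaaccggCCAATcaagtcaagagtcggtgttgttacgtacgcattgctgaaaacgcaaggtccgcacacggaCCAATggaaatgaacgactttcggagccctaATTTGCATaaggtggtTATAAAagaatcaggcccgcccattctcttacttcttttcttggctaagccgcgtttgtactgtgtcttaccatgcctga
The octamer is the motif that POU factors bind in H2B promoters, and a match describes letters only. TATAAA was in 40 of the 61 promoters (65.6%), against 11.5% of all 35116 promoters of the same length. CCAAT was in 51 (83.6%), against 34.6% of all. It was in each promoter of class H1, H2A, H2B and H3 searched and in 3 of 13 H4 promoters. ATGCAAAT was in 26 (42.6%), against 1.77% of all: 11 of 14 H2A, 14 of 18 H2B and 1 of 10 H3 promoters held it.

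Gene counts per library ranged from 4598576 to 17943571, and DMSO replicate 3 was the shallowest. The members received 939 to 7970 counts per library, and 40 to 51 of them had at least 1 count. Spike-in RNA (ERCC and SIRV) took 0.512% ± 0.0784 of counts with dCeMM-2, 0.542% ± 0.0699 with dCeMM-3 and 0.531% ± 0.0992 under THZ531, against 0.179% ± 0.0200 with DMSO. In dCeMM-1 libraries it took 0.176% ± 0.0193 and in dCeMM-4 libraries 0.234% ± 0.0497 (SD, n = 3 each). Alignments that were not unique made up 36.0% of the total with dCeMM-2, 41.0% with dCeMM-3 and 37.4% under THZ531, against 28.3% with DMSO. They made up 29.1% with dCeMM-1 and 29.4% with dCeMM-4. Mitochondrial genes took 7.03%, 12.9% and 9.75% of gene counts with dCeMM-2, dCeMM-3 and THZ531, against 5.14% with DMSO. The part of these differences in the histone counts was not tested. The myeloid markers CD33, KIT, SPI1, MYB and PTPRC had counts in all 18 libraries, while MPO lay at 0 to 0.404 CPM. Those 5, all tested, summed to 753 to 823 CPM with dCeMM-2, 715 to 813 under THZ531, 831 to 907 with dCeMM-3, 1145 to 1215 with dCeMM-4 and 1219.8 to 1325 with dCeMM-1, against 1385 to 1527 CPM with DMSO. By edgeR 1 was higher and 3 lower with dCeMM-2 on the TMM scale, 2 and 3 under THZ531, 2 and 3 with dCeMM-3, 1 and 2 with dCeMM-4, and 1 and 2 with dCeMM-1. Against the spike-in 5 were lower under each of dCeMM-2, dCeMM-3 and THZ531, 4 were under dCeMM-4, and the dCeMM-1 comparison had 0 lower and 1 higher. Of the markers of other cells, KRT5 was at 0 and MS4A1 at up to 0.0522 CPM. CD3E was at 1.21 to 4.46, COL1A1 at 0.578 to 4.18 and EPCAM at 0.365 to 1.63 CPM. Summed, these last 3, the tested genes of that list, lay at 2.98 to 3.52 CPM with dCeMM-1, 7.02 to 8.69 with dCeMM-2, 5.40 to 8.71 with dCeMM-3, 3.48 to 5.04 with dCeMM-4 and 6.90 to 9.70 with THZ531, against 2.37 to 3.64 CPM with DMSO. On the TMM scale edgeR called 3 of them higher with dCeMM-2, 2 with dCeMM-3, 1 with dCeMM-4, 3 under THZ531 and 0 with dCeMM-1. The test against the spike-in called 0 higher under each of these compounds and 1 lower with dCeMM-3. The background for both marker lists follows, with compounds in the order dCeMM-1 to dCeMM-4 and then THZ531. On the TMM scale 16.5%, 37.1%, 35.9%, 32.9% and 35.8% of all genes were higher and 14.8%, 41.2%, 45.1%, 35.3% and 43.7% lower. Against the spike-in 2.83%, 1.48%, 1.12%, 6.3% and 1.32% were higher and 1.34%, 83%, 83.7%, 48% and 84.7% lower. The part of either marker list in the histone levels was not tested.

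Most members were low. Of the 71, 40 passed the filter on low counts and 31 were not tested; 11 had 0 counts in all 18 libraries and 30 had at most 20 counts in all. HIST2H3D, with 59 counts, was the best covered gene left out. Among the others were the genes of linker histones H1.1 (HIST1H1A, 5 counts), H1.5 (HIST1H1B, 2 counts) and the testis form H1t (HIST1H1T, 6 counts), and the testis H2A and H2B genes HIST1H2AA and HIST1H2BA, at 0 counts each. The tested genes were 3 of 6 H1, 11 of 17 H2A, 13 of 18 H2B, 5 of 15 H3 and 8 of 15 H4. Among pairs with identical coding windows, HIST1H4J and HIST1H4K, HIST2H2AA3 and HIST2H2AA4, HIST2H3A and HIST2H3C, and HIST2H4A and HIST2H4B had 0 to 17 counts in all, and none was tested. In 15 members at least 50% of the 50-base windows of the coding sequence occurred in another HIST gene, and 12 of these were not tested. The exceptions were HIST2H2BE at 52.9%, HIST2H2BF at 75.1% and HIST1H2AM at 87.1%, which overlaps HIST1H3J in the annotation. A gene could pass the filter through treated libraries alone. In 31 of the 40 tested genes every DMSO library reached the filter's limit of 0.692 CPM, and in 9 it did not. The 9 were HIST4H4, HIST3H2BB, HIST1H2AB, HIST1H2AD, HIST1H2AK, HIST1H2BE, HIST1H3A, HIST1H3H and HIST1H3J.

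Levels of different genes were compared per kilobase of annotated exon. With dCeMM-2 the order began with HIST1H1C at 85.2, HIST1H1E at 46.7, HIST1H4C at 29.8 and HIST2H2BE at 28.0 CPM per kb. With THZ531 it began with the same names, HIST1H1C at 76.2, HIST1H1E at 39.2, HIST1H4C at 33.0 and HIST2H2BE at 29.7 CPM per kb. With dCeMM-1 HIST1H2BD led at 31.4, ahead of HIST1H1C at 30.9 CPM per kb, and with dCeMM-4 HIST1H1C at 39.3 stood ahead of HIST1H2AC at 27.4 CPM per kb. In DMSO HIST1H1C was at 22.0, HIST1H1E at 21.9, HIST1H2BD at 21.7, HIST1H2BK at 19.1, HIST1H3B at 18.4 and HIST1H2AC at 12.8 CPM per kb, so the first 3 were nearly level. The lengths are those of GENCODE 29, and the release counted is not given in the sources used here.

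Together the clustered histone genes took 1.93 to 2.35 times their DMSO share of gene counts with dCeMM-3, dCeMM-2 and THZ531, and relative to the spike-in 0.669 to 0.793 times their DMSO level. Summed, and with no further scaling, they held 284 ± 34.6 CPM with dCeMM-1, 458 ± 32.6 with dCeMM-2, 532 ± 63.4 with dCeMM-3, 293 ± 23.9 with dCeMM-4 and 435 ± 9.70 with THZ531, against 226 ± 29.5 with DMSO (SD, n = 3 each). The ratios to DMSO were 1.25, 2.03, 2.35, 1.30 and 1.93 in that order of compounds, and only the dCeMM-1 libraries overlapped those of DMSO. Per 1000 spike-in counts the members had 162 ± 24.6 counts with dCeMM-1, 90.9 ± 18.8 with dCeMM-2, 99.8 ± 25.1 with dCeMM-3, 129 ± 31.8 with dCeMM-4 and 84.1 ± 19.7 with THZ531, against 126 ± 3.69 with DMSO. On that scale the ratios were 1.28, 0.723, 0.793, 1.03 and 0.669. The dCeMM-2 and THZ531 libraries lay below every DMSO library, the dCeMM-1 libraries above, and those of dCeMM-3 and dCeMM-4 overlapped DMSO. Fewer cells and less RNA per cell cannot be told apart in these values.

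**Figure D1:**
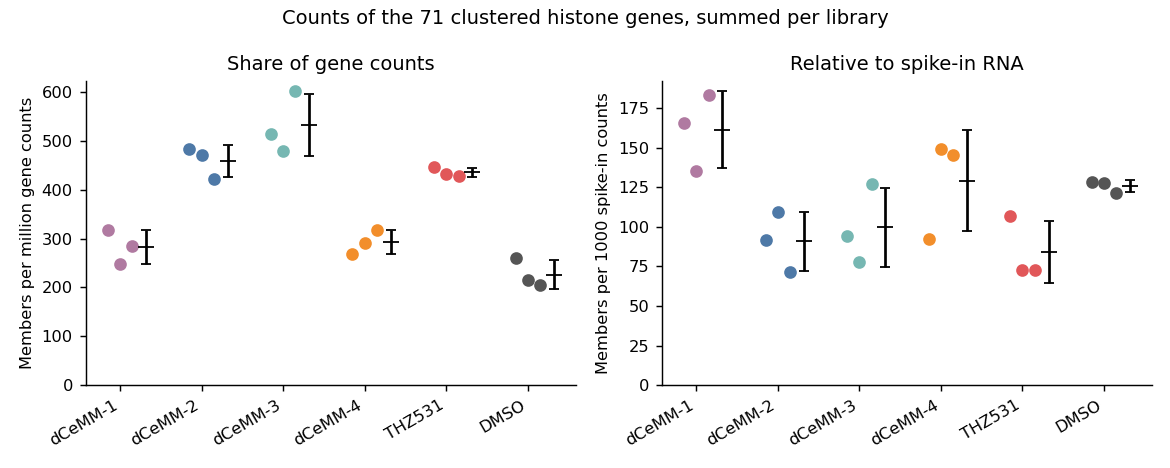
Counts of the 71 clustered histone genes summed in each library, in CPM of gene counts (left) and per 1000 spike-in counts (right); points are libraries, and the bar beside them is the mean with SD of 3. On the left dCeMM-2, dCeMM-3 and THZ531 lie at 421 to 602 and DMSO at 204 to 260 CPM, while on the right dCeMM-2 and THZ531 lie below DMSO.

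Relative to other genes, most tested histone genes were higher with dCeMM-2, dCeMM-3 and THZ531, few with dCeMM-1, and 10 of 40 with dCeMM-4. This TMM scale sets the bulk of genes near no change. By edgeR's quasi-likelihood test with Benjamini-Hochberg adjustment over 15055 genes and a threshold of 0.05, 8 of 40 members were called higher with dCeMM-1, where 16.5% of all genes were. With dCeMM-2 32 of 40 were called higher, against 37.1% of all genes, and with dCeMM-3 33 of 40, against 35.9%. With THZ531 it was 29 of 40, against 35.8%. With dCeMM-4 10 of 40 were called higher, against 32.9% of all genes, so that this share lay below the background. All 5 comparisons share the DMSO libraries. The median log2 fold changes of the members were 0.10, 1.04, 1.23, 0.28 and 0.85 with dCeMM-1 to dCeMM-4, in that order, and THZ531, and those of all genes tested 0.03, -0.02, -0.15, 0.01 and -0.10. With HIST1H3J, which had 0 counts in DMSO, set to its bound, the dCeMM-1 median was 0.06 and the others were as given. With dCeMM-4 the calls depended on the software: DESeq2 called 17 higher and 0 lower, and its size factors within edgeR 18 higher and 2 lower. Those size factors moved the median of all genes with dCeMM-4 to 0.13. Without DMSO replicate 2 the 8 calls with dCeMM-1 became 5. Among the 31 genes at or above the filter's limit in every DMSO library, 6 were called higher with dCeMM-1, 25 with dCeMM-2, 26 with dCeMM-3, 9 with dCeMM-4 and 22 with THZ531.

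Calls of lower level were rare on the TMM scale. There was 1 with dCeMM-3, HIST1H2BE, against 45.1% of all genes, and 2 with dCeMM-4, HIST1H2BD and HIST1H2BE, against 35.3%. With edgeR's test no member was called lower with dCeMM-1 (background 14.8%), dCeMM-2 (41.2%) or THZ531 (43.7%). At an unadjusted p under 0.05 the numbers lower were 2, 0 and 0 for those compounds, and DESeq2 also called 0 in each. With dCeMM-1, 2 were called lower without DMSO replicate 3 and 1 without DMSO replicate 2, dCeMM-1 replicate 1, dCeMM-3 replicate 2 or dCeMM-3 replicate 3. With THZ531, 2 were called lower without THZ531 replicate 1 and 1 without dCeMM-1 replicate 2 or dCeMM-2 replicate 3.

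On the spike-in scale more members were called lower than higher with dCeMM-2, dCeMM-3 and THZ531, though a smaller share of them was lower than of all genes. With dCeMM-2 5 members were called higher and 22 lower, against 1.48% and 83% of all genes. With dCeMM-3 5 were higher and 19 lower, against 1.12% and 83.7%, and with THZ531 6 were higher and 23 lower, against 1.32% and 84.7%. With dCeMM-4 4 were higher and 4 lower, against 6.3% and 48%, and with dCeMM-1 2 were higher and 0 lower, against 2.83% and 1.34%. At an unadjusted p under 0.05, 0 members were lower with dCeMM-1, and DESeq2 called 0. The median log2 fold changes of the members were 0.20, -0.70, -0.52, -0.24 and -0.90 with dCeMM-1 to dCeMM-4, in that order, and THZ531, and those of all genes 0.10, -1.80, -1.96, -0.56 and -1.94. With HIST1H3J at its bound the dCeMM-1 median was 0.18. Higher on the TMM scale and lower on the spike-in scale were 15 members with dCeMM-2, 12 with dCeMM-3 and 12 under THZ531. Of all genes 37.1%, 35.9% and 35.8% were higher on the TMM scale and 83%, 83.7% and 84.7% lower on the spike-in scale. The share of all genes with both calls was not counted, so these numbers of members have no direct background. With dCeMM-4 the 4 higher calls became 1 without DMSO replicate 1, dCeMM-4 replicate 2 or dCeMM-4 replicate 3 and 2 without DMSO replicate 3. The 4 lower calls became 2 without DMSO replicate 3 or dCeMM-4 replicate 1 and 8 without dCeMM-4 replicate 2. The 2 higher calls with dCeMM-1 became 1 without DMSO replicate 1 or dCeMM-1 replicate 3 and 4 without dCeMM-4 replicate 1.

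**Figure D2:**
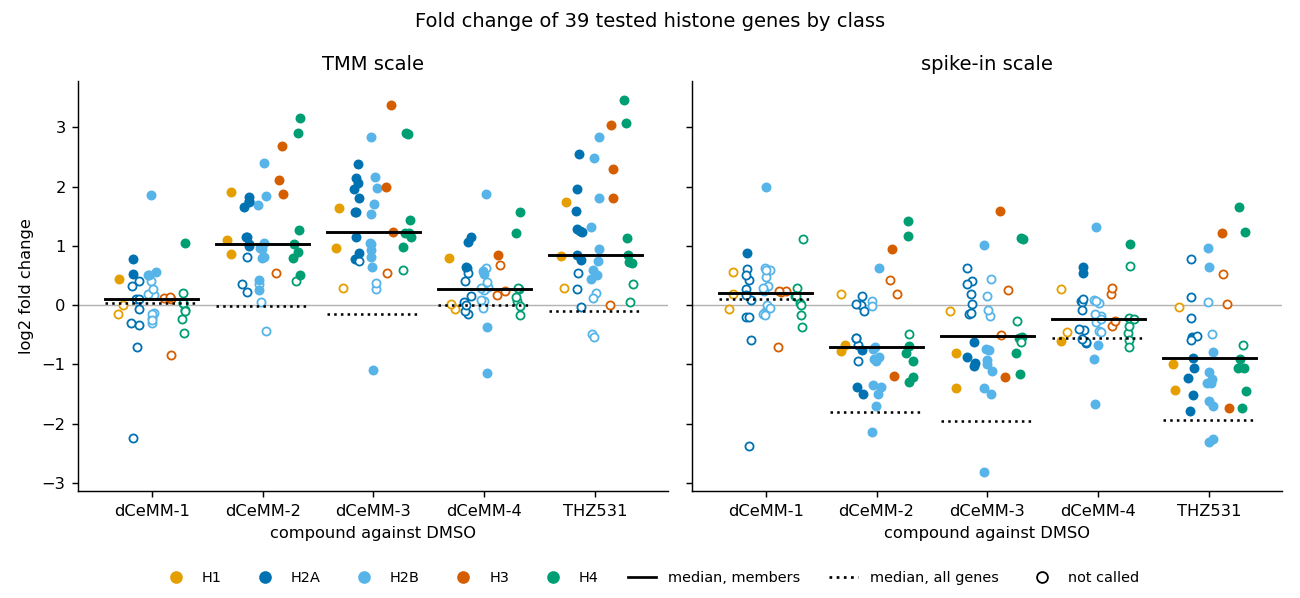
Log2 fold change of 39 tested members against DMSO for each compound, on the TMM scale (left) and the spike-in scale (right), coloured by histone class; filled points passed the threshold, solid lines are the members' medians over all 40 tested and dotted lines those of all genes. HIST1H3J, with 0 counts in DMSO, is not drawn. On the left the members' medians with dCeMM-2, dCeMM-3 and THZ531 are 1.04, 1.23 and 0.85, and on the right -0.70, -0.52 and -0.90, where the dotted lines lie near -1.8 to -2.0.

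Members higher on both scales were few in number. Of all genes, the share higher on both could not exceed the share higher against the spike-in. In the order dCeMM-1 to dCeMM-4 and then THZ531, that share was 2.83%, 1.48%, 1.12%, 6.3% and 1.32%. With all libraries kept, the members higher on both, out of 40 tested, made up a larger share in each comparison. With dCeMM-2 they were HIST2H2BE, HIST1H4C, HIST1H3G, HIST1H3J and HIST4H4, and with dCeMM-3 HIST3H2BB replaced HIST2H2BE in that list. With THZ531 all 6 of these were higher on both scales. HIST1H3J had 0 counts with DMSO and so passed the filter through treated libraries alone, which fixed the direction of its difference. With dCeMM-4 the members higher on both scales were HIST2H2BE, HIST3H2A, HIST1H2AC and HIST4H4, and with dCeMM-1 HIST1H2AC and HIST1H2BE. HIST4H4, HIST3H2BB and HIST1H2BE each had a DMSO library below the filter's limit of 0.692 CPM. Those libraries held 0.574, 0.463 and 0.383 CPM, in that order, so these genes passed the filter only with treated libraries.

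HIST4H4, the single gene of its cluster (chr12:14767999-14771131, minus strand), encodes histone H4. Its TMM-scaled level was 1.31, 1.54 and 1.17 CPM with dCeMM-1, 6.46, 6.07 and 4.85 with dCeMM-2, 4.93, 4.15 and 5.64 with dCeMM-3, 1.68, 1.97 and 2.19 with dCeMM-4, and 7.31, 7.37 and 7.17 with THZ531, against 0.694, 0.574 and 0.767 CPM with DMSO. Every treated library lay above every DMSO library, with the THZ531 libraries highest. The log2 fold changes by edgeR were 1.04 ± 0.30 with dCeMM-1, 3.16 ± 0.24 with dCeMM-2, 2.91 ± 0.25 with dCeMM-3, 1.57 ± 0.29 with dCeMM-4 and 3.47 ± 0.23 with THZ531 (SE). The adjusted p was 0.00686 with dCeMM-1 and at most 6.03e-06 with the others. Against the spike-in the fold changes were 1.41 ± 0.38 with dCeMM-2, 1.14 ± 0.38 with dCeMM-3, 1.04 ± 0.40 with dCeMM-4 and 1.65 ± 0.37 with THZ531 (SE, log2). The dCeMM-1 call on the TMM scale was lost without DMSO replicate 2 (log2 0.91, edgeR adjusted p = 0.0677). The dCeMM-4 call against the spike-in was lost without DMSO replicate 1 (adjusted p = 0.0764), DMSO replicate 2 (0.0719), dCeMM-4 replicate 2 (0.0548) or dCeMM-4 replicate 3 (0.0761), at log2 values of 0.97, 1.004, 0.91 and 0.89.

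HIST1H4C, another H4 gene (chr6:26103876-26104310, plus strand), had 11.96, 12.7 and 14.3 CPM with dCeMM-2, 12.4, 10.3 and 15.02 with dCeMM-3, 4.29, 4.23 and 3.41 with dCeMM-4 and 12.2, 13.9 and 16.9 with THZ531, against 1.97, 1.46 and 1.72 CPM with DMSO. With dCeMM-1 it had 2.10, 2.48 and 1.33 CPM, which overlapped DMSO. The log2 fold changes on the TMM scale were 2.91 ± 0.20 with dCeMM-2, 2.88 ± 0.20 with dCeMM-3, 1.22 ± 0.23 with dCeMM-4 and 3.07 ± 0.20 with THZ531 (SE, edgeR adjusted p at most 1.59e-05). Against the spike-in they were 1.16 ± 0.30, 1.11 ± 0.30 and 1.23 ± 0.29 with dCeMM-2, dCeMM-3 and THZ531, all called. On the TMM scale the 8 tested H4 genes had 1 higher call with dCeMM-1, 7 with dCeMM-2, 7 with dCeMM-3, 2 with dCeMM-4 and 6 with THZ531. The shares of all genes higher there were 16.5%, 37.1%, 35.9%, 32.9% and 35.8% in that order. The best covered H4 gene, HIST1H4H, averaged 18.4 CPM with dCeMM-2, 25.2 with dCeMM-3 and 17.6 under THZ531, against 10.4 CPM with DMSO, at log2 fold changes of 0.79, 1.22 and 0.71. HIST1H4E, the next, had 1.03, 1.22 and 0.85. Against the spike-in both genes were lower with these compounds, HIST1H4H at -0.95, -0.55 and -1.07 and HIST1H4E at -0.69, -0.53 and -0.91. HIST1H4B, HIST1H4D and HIST1H4I lay between 1.51 and 1.99 CPM with DMSO. Their log2 fold changes with dCeMM-2 were 0.90, 1.27 and 0.51, and with dCeMM-3 1.44, 0.98 and 1.15, all called by edgeR. HIST1H4A was not called with any of the compounds on the TMM scale and was lower against the spike-in with dCeMM-2 (-1.29), dCeMM-3 (-1.17) and THZ531 (-1.74).

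HIST1H3G, which encodes histone H3 (chr6:26269405-26271815, minus strand), had 16.7, 18.2 and 17.1 CPM with dCeMM-2, 28.6, 23.5 and 31.1 with dCeMM-3, 5.10, 4.52 and 4.88 with dCeMM-4 and 22.1, 21.8 and 22.1 with THZ531, against 3.01, 2.30 and 2.87 CPM with DMSO. With dCeMM-1 the values were 3.61, 2.18 and 3.19 CPM and overlapped DMSO. The log2 fold changes were 2.69 ± 0.16 with dCeMM-2, 3.38 ± 0.15 with dCeMM-3, 0.85 ± 0.18 with dCeMM-4 and 3.04 ± 0.15 with THZ531 (SE, edgeR adjusted p at most 8.78e-05). Against the spike-in they were 0.94 ± 0.27, 1.59 ± 0.27 and 1.21 ± 0.27 with dCeMM-2, dCeMM-3 and THZ531. Among the 5 tested H3 genes 4 were called higher with each of these compounds on the TMM scale, 1 with dCeMM-4 and 0 with dCeMM-1. HIST1H3H averaged 4.19 CPM with dCeMM-2, 4.53 with dCeMM-3 and 5.67 under THZ531, against 0.981 CPM with DMSO. HIST1H3B, the tested H3 gene with the highest level per kilobase in each group, was not called with any compound on the TMM scale: its libraries held 13.2, 4.91 and 5.04 CPM with THZ531 and 9.37, 6.58 and 6.71 CPM with DMSO. The dCeMM-2 libraries of this gene, at 11.4, 12.1 and 9.70 CPM, lay above every DMSO library. Against the spike-in it was lower with dCeMM-2, dCeMM-3 and THZ531, at log2 values of -1.20, -1.21 and -1.73. HIST1H3A averaged 0.535 CPM with DMSO and had log2 fold changes of 2.12 with dCeMM-2, 1.23 with dCeMM-3 and 1.82 under THZ531. DMSO replicates 2 and 3 of HIST1H3A, at 0.470 and 0.383 CPM, lay below the filter's limit of 0.692 CPM. HIST1H3J had 12 counts in all with dCeMM-2, 17 with dCeMM-3 and 28 under THZ531, against 0 with DMSO. Its libraries held 7, 4 and 1 counts with dCeMM-2, 7, 0 and 10 with dCeMM-3 and 8, 10 and 10 with THZ531. Against a floor of 3 counts over the DMSO group its bounds were 4.95-fold with dCeMM-2, 6.31-fold with dCeMM-3 and 10.7-fold with THZ531. Relative to the spike-in these bounds were 1.48-fold, 1.83-fold and 3.01-fold. They leave out the error of the treated counts, and the gene passed the filter through treated libraries alone.

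HIST2H2BE, an H2B gene with a long annotated 3′ part (chr1:149884459-149886652, minus strand), had 19.7, 15.8 and 16.3 CPM with dCeMM-1, 67.7, 59.9 and 56.7 with dCeMM-2, 45.7, 43.4 and 47.5 with dCeMM-3, 39.8, 43.1 and 44.4 with dCeMM-4 and 69.9, 63.7 and 62.2 with THZ531, against 12.1, 10.9 and 12.3 CPM with DMSO. Every treated library lay above DMSO, and the dCeMM-4 libraries stood close to those of dCeMM-3. The log2 fold changes were 0.56 ± 0.11, 2.41 ± 0.10, 1.97 ± 0.10, 1.87 ± 0.10 and 2.49 ± 0.10 with dCeMM-1 to dCeMM-4, in that order, and THZ531 (SE, edgeR adjusted p at most 8.87e-05). Against the spike-in they were 0.62 ± 0.23 with dCeMM-2, 1.31 ± 0.23 with dCeMM-4 and 0.65 ± 0.23 with THZ531, and the last call was lost without THZ531 replicate 1 (log2 0.45, adjusted p = 0.0734). Of its coding windows 52.9% occur in another HIST gene.

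HIST3H2BB, an H2B gene of the HIST3 cluster, had 2.82, 2.99 and 2.81 CPM with dCeMM-2, 6.31, 5.91 and 4.93 with dCeMM-3 and 4.43, 6.84 and 5.91 with THZ531, against 0.463, 0.992 and 1.15 CPM with DMSO. These libraries lay above DMSO, and those of dCeMM-1 and dCeMM-4, at 0.843 to 1.33 CPM, overlapped it. The log2 fold changes called were 1.85 ± 0.30 with dCeMM-2, 2.84 ± 0.26 with dCeMM-3 and 2.83 ± 0.26 under THZ531 (SE, edgeR adjusted p at most 6.74e-07). Against the spike-in it was called at 1.01 with dCeMM-3 and 0.96 with THZ531 on the log2 scale. Both calls were lost without DMSO replicate 1, the lowest of its group, at 0.53 (adjusted p = 0.224) and 0.48 (adjusted p = 0.264). HIST1H2BG averaged 40.7 CPM with dCeMM-2, 57.2 with dCeMM-3, 18.3 with dCeMM-4 and 44.7 with THZ531, against 11.9 CPM with DMSO, and 10.4 CPM with dCeMM-1. Relative to the spike-in the HIST1H2BG libraries of every compound overlapped those of DMSO. The 13 tested H2B genes had 4 higher calls with dCeMM-1, 10 with dCeMM-2, 10 with dCeMM-3, 3 with dCeMM-4 and 9 with THZ531 on the TMM scale. In the same order 16.5%, 37.1%, 35.9%, 32.9% and 35.8% of all genes were higher, so the dCeMM-4 count lay below the background.

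The remaining H2B genes varied in the size of their differences. HIST1H2BK averaged 7.27 CPM with DMSO, and its log2 fold changes were 0.43 with dCeMM-2, 0.81 with dCeMM-3 and 0.58 under THZ531, all called higher on the TMM scale. HIST1H2BF (6.28 CPM with DMSO) had 0.80, 0.64 and 0.44 there, HIST1H2BN (5.52 CPM) 0.95, 0.93 and 0.75, and HIST1H2BO (2.40 CPM) 0.81, 1.05 and 0.51 with the same compounds. Against the spike-in these 4 genes were lower with each of the 3, at log2 values between -0.75 and -1.36. HIST1H2BC (5.16 CPM) reached 0.96, 1.55 and 0.94, and 0.58 with dCeMM-4, a call lost without DMSO replicate 2 (0.51, edgeR adjusted p = 0.0631). HIST1H2BJ was called higher with dCeMM-1 (0.50), dCeMM-2 (1.04), dCeMM-3 (1.71) and THZ531 (1.33). HIST1H2BI and HIST2H2BF, at 2.47 and 8.31 CPM with DMSO, were not called with any compound on the TMM scale. Against the spike-in both were lower with dCeMM-2, dCeMM-3 and THZ531, HIST1H2BI at -1.70, -1.41 and -1.70 and HIST2H2BF at -1.39, -1.50 and -2.26 (log2).

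Among the H2A genes, HIST1H2AC (chr6:26124145-26139116, plus strand) had the highest mean CPM over the 18 libraries. Per kilobase HIST1H2AE stood above it with dCeMM-3, at 32.8 against 29.2 CPM per kb. HIST1H2AC held 39.6, 33.7 and 38.9 CPM with dCeMM-1, 46.6, 42.5 and 40.2 with dCeMM-2, 45.04, 48.2 and 52.7 with dCeMM-3, 44.6, 42.9 and 49.7 with dCeMM-4 and 35.5, 37.2 and 37.9 with THZ531, against 23.4, 21.6 and 19.2 CPM with DMSO. All treated libraries lay above DMSO, and the compounds lay close to one another, at log2 fold changes of 0.78 ± 0.09, 0.99 ± 0.10, 1.16 ± 0.09, 1.07 ± 0.09 and 0.76 ± 0.10 with dCeMM-1 to dCeMM-4, in that order, and THZ531 (SE, edgeR adjusted p at most 3.08e-08). Against the spike-in it was called higher with dCeMM-1 at 0.87 and dCeMM-4 at 0.53, and lower with dCeMM-2 at -0.76, dCeMM-3 at -0.63 and THZ531 at -1.06 (log2). The dCeMM-1 call there was lost without DMSO replicate 1 (0.83, adjusted p = 0.0612) or dCeMM-1 replicate 3 (0.74, adjusted p = 0.1). The dCeMM-4 call there was lost without DMSO replicate 1 (0.49, adjusted p = 0.0913), DMSO replicate 3 (0.52, 0.0836), dCeMM-4 replicate 2 (0.47, 0.0856) or dCeMM-4 replicate 3 (0.41, 0.166).

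The other H2A genes spread more widely. HIST3H2A averaged 7.83 CPM with dCeMM-1, 17.4 with dCeMM-2, 19.2 with dCeMM-3, 12.2 with dCeMM-4 and 13.3 with THZ531, against 5.32 CPM with DMSO, and was called higher in each comparison on the TMM scale. Relative to the spike-in its dCeMM-2, dCeMM-3 and dCeMM-4 libraries overlapped DMSO, those of dCeMM-1 lay above and those of THZ531 below. Against the spike-in its dCeMM-4 value of 0.64 (log2, adjusted p = 0.0219) was called, and the call was lost without DMSO replicate 1 (0.52, adjusted p = 0.118), DMSO replicate 3 (0.62, 0.0547), dCeMM-4 replicate 2 (0.55, 0.0716) or dCeMM-4 replicate 3 (0.43, 0.197). HIST2H2AC averaged 3.49 CPM with dCeMM-2, 5.49 with dCeMM-3 and 3.10 under THZ531, against 1.01 CPM with DMSO. HIST1H2AG had log2 fold changes of 1.75 with dCeMM-2 and 0.64 with dCeMM-4, the second lost without DMSO replicate 2 (0.41, adjusted p = 0.0718). HIST1H2AE (5.28 CPM with DMSO) had log2 fold changes of 1.15 with dCeMM-2, 1.57 with dCeMM-3 and 0.85 under THZ531, and HIST1H2AH (2.19 CPM) of 1.15, 1.57 and 1.23. HIST1H2AB (0.823 CPM with DMSO) was called at 1.04 with dCeMM-2 and 2.14 with dCeMM-3, but not with THZ531, at 0.54. HIST2H2AB and HIST1H2AM were called higher with dCeMM-3, at 0.77 and 0.88, and with no other compound, and both were lower against the spike-in with dCeMM-2, dCeMM-3 and THZ531. HIST1H2AK was called with THZ531 (1.24), and HIST1H2AD, at 0.139 CPM with DMSO, at 1.82 with dCeMM-2, 2.07 with dCeMM-3 and 2.54 under THZ531. Every DMSO library of HIST1H2AD lay below the filter's limit of 0.692 CPM, so it passed the filter through treated libraries alone. HIST1H2AB and HIST1H2AK also had DMSO libraries below that limit. The 11 tested H2A genes had 2 higher calls with dCeMM-1, 8 with dCeMM-2, 10 with dCeMM-3, 3 with dCeMM-4 and 8 with THZ531 on the TMM scale. The background over all genes was 16.5%, 37.1%, 35.9%, 32.9% and 35.8% in that order, and the dCeMM-1 and dCeMM-4 counts were near it.

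Of the linker histones, HIST1H1C (chr6:26055787-26056428, minus strand) held 23.1, 18.1 and 18.4 CPM with dCeMM-1, 58.0, 56.6 and 49.4 with dCeMM-2, 42.7, 39.9 and 53.7 with dCeMM-3, 25.8, 25.0 and 24.9 with dCeMM-4 and 56.5, 44.6 and 45.6 with THZ531, against 17.8, 12.6 and 12.1 CPM with DMSO. Every treated library lay above the DMSO libraries, those of dCeMM-1 by the least. The log2 fold changes were 0.44 ± 0.14, 1.92 ± 0.13, 1.64 ± 0.13, 0.79 ± 0.13 and 1.75 ± 0.13 with dCeMM-1 to dCeMM-4, in that order, and THZ531 (SE, edgeR adjusted p at most 0.014). The dCeMM-1 call was lost without DMSO replicate 2 (0.31, adjusted p = 0.155), DMSO replicate 3 (0.38, 0.0524) or dCeMM-1 replicate 1 (0.33, 0.0933). Against the spike-in HIST1H1C was not called with any compound, at log2 values of 0.55, 0.19, -0.10, 0.28 and -0.03 in the same order. HIST1H1E averaged 35.2 CPM with dCeMM-2, 32.3 with dCeMM-3 and 29.6 under THZ531, against 16.5 CPM with DMSO. Against the spike-in HIST1H1E was called lower with dCeMM-2 to dCeMM-4 and THZ531, at log2 values of -0.67, -0.80, -0.61 and -0.998. HIST1H1D averaged 7.60 CPM with dCeMM-2, against 3.602 CPM with DMSO (log2 0.87, edgeR adjusted p = 0.00513), and was not called with the other compounds on the TMM scale. Against the spike-in it was lower with dCeMM-2 (-0.78), dCeMM-3 (-1.39) and THZ531 (-1.44).

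**Figure D3:**
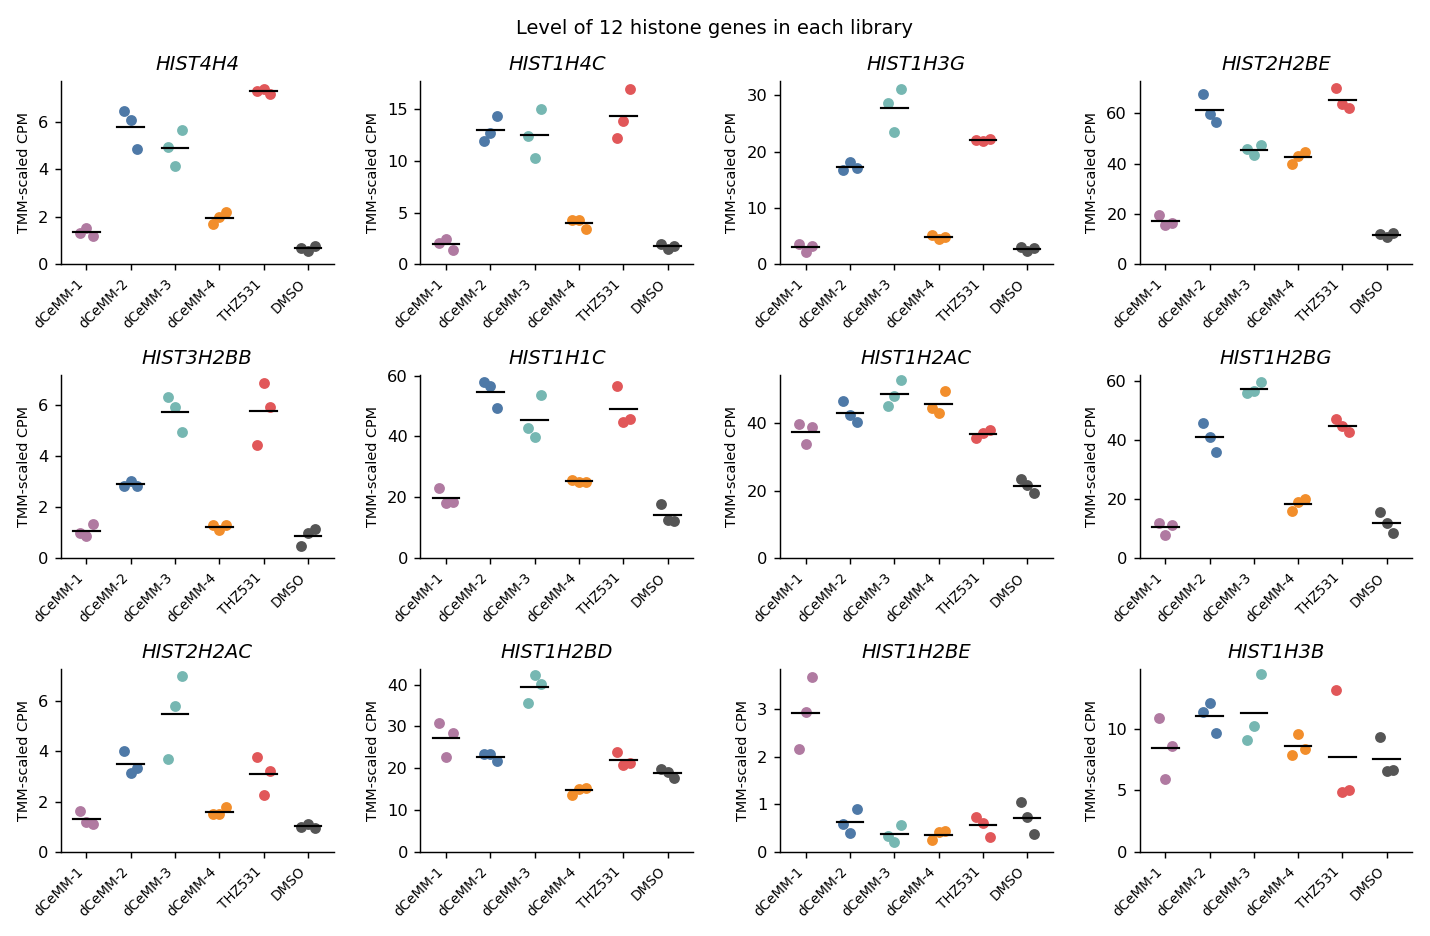
TMM-scaled CPM of 12 histone genes in each of the 18 libraries; points are libraries and black lines group means, with DMSO rightmost in each panel. HIST4H4, HIST1H4C, HIST1H3G and HIST3H2BB have their dCeMM-2, dCeMM-3 and THZ531 libraries above those of DMSO. In HIST1H3B every group but dCeMM-2 overlaps DMSO, and in HIST1H2BE the dCeMM-1 libraries are highest.

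HIST1H2BE and HIST1H2BD, neighbouring H2B genes on chromosome 6, were the members called lower on the TMM scale. HIST1H2BE was singled out after its values were seen. It had 2.16, 2.93 and 3.67 CPM with dCeMM-1, 0.594, 0.404 and 0.894 with dCeMM-2, 0.329, 0.207 and 0.556 with dCeMM-3, 0.249, 0.406 and 0.427 with dCeMM-4 and 0.739, 0.614 and 0.315 with THZ531, against 1.04, 0.731 and 0.383 CPM with DMSO. On this scale the dCeMM-1 libraries lay above all others, and the groups of the other compounds overlapped DMSO. The log2 fold change was 1.86 ± 0.31 with dCeMM-1 (SE, edgeR adjusted p = 1.05e-05), -1.10 ± 0.48 with dCeMM-3 (adjusted p = 0.0342) and -1.14 ± 0.45 with dCeMM-4 (adjusted p = 0.0231). The dCeMM-3 call was lost with DESeq2 (adjusted p = 0.116), with its size factors (0.0671), with a minimum count of 30 (0.0593), and without DMSO replicate 1 (-0.80, 0.196), dCeMM-3 replicate 1 (-1.0004, 0.1) or dCeMM-3 replicate 2 (-0.91, 0.0997). The dCeMM-4 call was lost with DESeq2 (adjusted p = 0.0819), with no filter (0.0514), and without DMSO replicate 1 (-0.83, 0.184) or dCeMM-4 replicate 1 (-0.95, 0.0887). Against the spike-in every HIST1H2BE library of dCeMM-2 to dCeMM-4 and THZ531 lay below every DMSO library. The log2 fold changes there were -2.14, -2.82, -1.67 and -2.31 in that order of compounds, and 1.99 with dCeMM-1. The lower calls with dCeMM-3 and dCeMM-4 thus stood on both scales. HIST1H2BD had 30.8, 22.7 and 28.4 CPM with dCeMM-1, 35.6, 42.4 and 40.1 with dCeMM-3 and 13.7, 15.1 and 15.4 with dCeMM-4, against 19.9, 19.2 and 17.6 CPM with DMSO. Its dCeMM-2 libraries, at 23.3, 23.3 and 21.7 CPM, and THZ531 libraries, at 24.0, 20.8 and 21.3 CPM, also lay above every DMSO library. HIST1H2BD was called higher with dCeMM-1 (0.51 ± 0.10), dCeMM-3 (1.04 ± 0.10) and dCeMM-2. It was lower with dCeMM-4 (-0.38 ± 0.11, edgeR adjusted p = 0.00257), and that call was lost with DESeq2 (-0.25, adjusted p = 0.0579). Against the spike-in HIST1H2BD was called lower with dCeMM-4 as well, at -0.92 (log2), and its dCeMM-2, dCeMM-3 and THZ531 libraries lay below every DMSO library. Both genes overlap the annotated gene AL353759.1 on the opposite strand, and HIST1H2BD also overlaps LARP1P1. The strand setting of the counting is not given in the sources used here, so reads of the 2 strands cannot be told apart.

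The annotation of the 3′ part divided the tested genes in ways the choice of members had not used. Among 19 tested genes whose annotation runs over 150 bases past the coding sequence, 7 were called higher with dCeMM-1, 17 with dCeMM-2, 17 with dCeMM-3, 8 with dCeMM-4 and 15 with THZ531 on the TMM scale. Lower were 1 of these with dCeMM-3 and 2 with dCeMM-4. Among 17 whose annotation ends at the stop codon the numbers higher were 1, 11, 12, 1 and 10. Against the spike-in the 19 had 2, 3, 3, 4 and 4 higher and 0, 11, 8, 3 and 11 lower, and the 17 had 0, 1, 1, 0 and 1 higher and 0, 8, 10, 0 and 9 lower. On the TMM scale the 4 genes with shorter 3′ parts had 0, 4, 4, 1 and 4 higher calls. The 10 tested genes with an annotated spliced transcript had 5, 8, 8, 3 and 7 higher calls on the TMM scale, and the 30 without one 3, 24, 25, 7 and 22. By the same order of compounds and on the same scale, genes with a stem-loop match had 6, 18, 18, 8 and 16 higher of 20. Those without one had 2, 14, 15, 2 and 13 of 20. Of all genes 16.5%, 37.1%, 35.9%, 32.9% and 35.8% were higher on the TMM scale in that order of compounds, and 1.34%, 83%, 83.7%, 48% and 84.7% lower against the spike-in. Higher against the spike-in were 2.83%, 1.48%, 1.12%, 6.3% and 1.32%, and lower on the TMM scale 45.1% with dCeMM-3 and 35.3% with dCeMM-4. These groupings overlap, were not tested against each other, and differ in how much sequence is open to counting. The HIST1 genes had 5, 27, 27, 7 and 24 higher calls of 33 on the TMM scale, and the 4 tested HIST2 genes 1, 2, 3, 1 and 2.

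**Figure D4:**
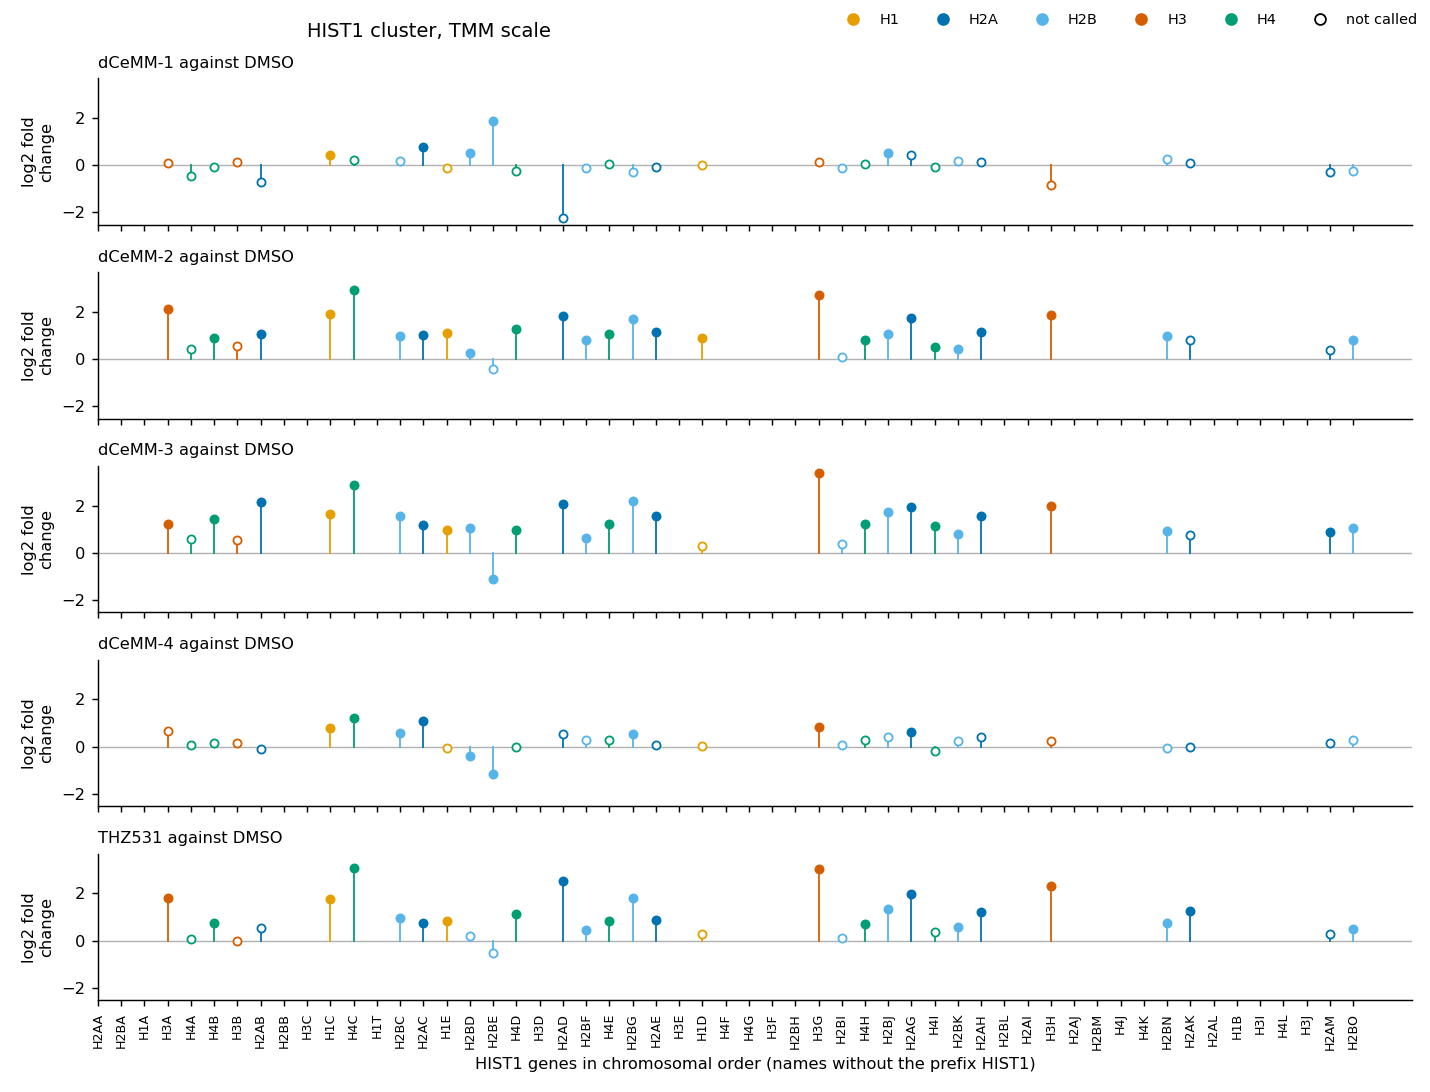
Log2 fold change on the TMM scale for 32 tested HIST1 genes in the order of the 55 genes along chromosome 6, one row per compound against DMSO; filled points passed the threshold, empty positions are genes not tested, and HIST1H3J is not drawn. Called rises with dCeMM-2, dCeMM-3 and THZ531 run over the whole row, while those with dCeMM-1 and dCeMM-4 number 5 and 7.

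The compounds dCeMM-2, dCeMM-3 and dCeMM-4 were given at the same multiple of EC50, which allowed 3 direct comparisons, with p-values adjusted over all genes within each. THZ531 was given at a fixed concentration, and its values stand beside the others without a comparison. On the TMM scale dCeMM-2 against dCeMM-4 gave 28 members higher and 0 lower, where 38.4% and 38.9% of all genes were. For dCeMM-3 against dCeMM-4 it was 29 higher and 0 lower, where 41.5% and 41.2% were. At an unadjusted p under 0.05 no member was lower in either by edgeR, and DESeq2 called 0 lower in both. Against the spike-in the split turned: 1 higher and 15 lower for dCeMM-2 against dCeMM-4 (background 2.63% and 66.8%), and 3 higher and 9 lower for dCeMM-3 against dCeMM-4 (5.35% and 65.3%). HIST1H3G was higher on both scales in both, at 1.84 (95% interval 1.57 to 2.12) for dCeMM-2 and 2.53 (2.27 to 2.79) for dCeMM-3 on the TMM scale, and 0.65 and 1.30 against the spike-in (log2). HIST1H4C differed by 1.69 (1.36 to 2.03) for dCeMM-2 against dCeMM-4 and by 1.67 (1.34 to 1.996) for dCeMM-3 against dCeMM-4. HIST4H4 differed by 1.59 (1.21 to 1.97) and 1.34 (0.96 to 1.72), and HIST3H2BB by 1.23 (0.70 to 1.75) and 2.22 (1.76 to 2.67). Against the spike-in the same pairs of differences were 0.50 and 0.44 for HIST1H4C and 0.38 and 0.10 for HIST4H4, none called, and 0.04, not called, and 0.98, called higher, for HIST3H2BB. HIST1H2AC was not called on the TMM scale, at -0.08 (-0.25 to 0.10) for dCeMM-2 against dCeMM-4 and 0.09 (-0.09 to 0.26) for dCeMM-3 against dCeMM-4. It was lower in both against the spike-in, at -1.30 (-1.73 to -0.87) and -1.16 (-1.59 to -0.73). HIST2H2BE was higher on the TMM scale by 0.54 (0.37 to 0.71) with dCeMM-2 and not called with dCeMM-3, at 0.10 (-0.07 to 0.28). It was lower with both against the spike-in, at -0.69 (-1.12 to -0.27) and -1.16 (-1.59 to -0.72).

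Between dCeMM-2 and dCeMM-3 the called differences ran mostly one way. On the TMM scale 2 were higher and 11 lower with dCeMM-2, where 26.6% and 16.5% of all genes were. The 2 were HIST2H2BE, at 0.43 (95% interval 0.26 to 0.61), and HIST1H3A, at 0.89 and an edgeR adjusted p of 0.037. The number higher was 1 without dCeMM-2 replicate 2, dCeMM-3 replicate 1 or dCeMM-3 replicate 2, and 4 without DMSO replicate 1 or dCeMM-3 replicate 3. Lower with dCeMM-2 were HIST3H2BB at -0.99 (-1.42 to -0.56), HIST1H2BD at -0.78 (-0.99 to -0.57), HIST1H3G at -0.68 (-0.91 to -0.46) and HIST1H2BJ at -0.67, with an adjusted p of 0.000835 for the last. HIST1H4C, at 0.02 (-0.27 to 0.32), and HIST4H4, at 0.25 (-0.09 to 0.59), were not called. Against the spike-in 0 were higher and 4 lower, where 18.4% and 4.32% of all genes were, and 3 were higher at an unadjusted p under 0.05. The 4 were HIST3H2BB, HIST1H2AB, HIST1H2BD and HIST1H3G.

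**Figure D5:**
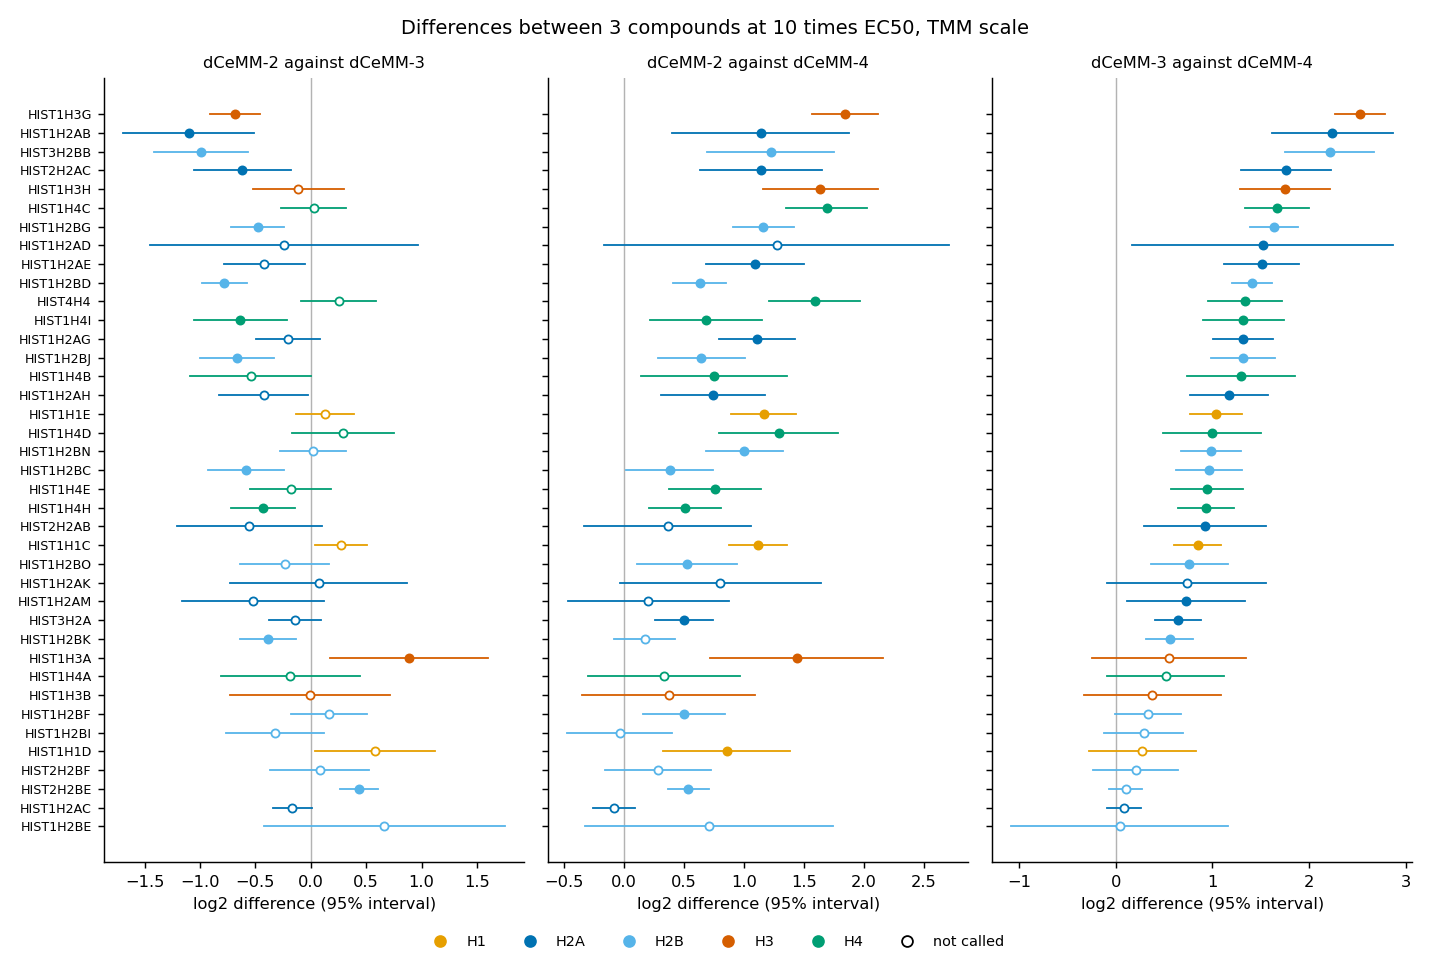
Log2 difference on the TMM scale of 39 tested members between dCeMM-2 and dCeMM-3, dCeMM-2 and dCeMM-4, and dCeMM-3 and dCeMM-4, with 95% intervals; genes are ordered by the rightmost comparison and filled points passed the threshold. In the middle and right panels the called members lie above 0, and in the left panel 11 lie below 0 and 2 above.

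Histone genes outside the clusters mostly give mRNAs with an ordinary poly-A tail. Of 11 listed, 9 were tested, and on the TMM scale 3 were higher with dCeMM-1, 7 with dCeMM-2, 6 with dCeMM-3, 7 with dCeMM-4 and 6 with THZ531, while 0, 2, 3, 0 and 2 were lower. Of all genes 16.5%, 37.1%, 35.9%, 32.9% and 35.8% were higher there and 14.8%, 41.2%, 45.1%, 35.3% and 43.7% lower. H1FX, a linker histone variant, rose by 1.94 with THZ531, 1.10 with dCeMM-4, 2.04 with dCeMM-3 and 2.40 with dCeMM-2, and H3F3A, which encodes the replacement histone H3.3, by 1.06, 0.97, 0.84 and 1.29 (log2, all called by edgeR on the TMM scale). Against the spike-in H1FX was called higher with dCeMM-2 (0.60) and dCeMM-4 (0.51), while H3F3A was lower with dCeMM-2 (-0.49), dCeMM-3 (-0.98) and THZ531 (-0.79). H2AFX, the variant phosphorylated at DNA breaks, was lower with dCeMM-2 (-0.34), dCeMM-3 (-2.43) and THZ531 (-0.94) and higher with dCeMM-4 (0.89, and 0.32 against the spike-in, not called). Against the spike-in 0 of the 9 were lower with dCeMM-1, 8 with dCeMM-2, 7 with dCeMM-3, 1 with dCeMM-4 and 8 with THZ531, where 1.34%, 83%, 83.7%, 48% and 84.7% of all genes were.

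Genes of histone mRNA transcription and processing were mostly lower with the cyclin K degraders and THZ531. Of 19, all tested, 14 were lower with dCeMM-2, 15 with dCeMM-3, 11 with dCeMM-4, 16 with THZ531 and 3 with dCeMM-1 on the TMM scale, and 2, 2, 7, 2 and 2 higher. In that order of compounds 41.2%, 45.1%, 35.3%, 43.7% and 14.8% of all genes were lower, so the dCeMM-1 count was near the background, and 37.1%, 35.9%, 32.9%, 35.8% and 16.5% were higher. Against the spike-in 0 were lower with dCeMM-1, 12 with dCeMM-4 and all 19 under each of the other compounds, where 1.34%, 48% and 83% to 84.7% of all genes were. NPAT, the coactivator of histone gene transcription, was at a log2 fold change of -2.84 with dCeMM-2 and -3.13 with THZ531 on the TMM scale. SLBP, the stem-loop binding protein, was at -2.65 with dCeMM-3 and 0.61 with dCeMM-4, both called, and against the spike-in at -4.47 and 0.05, the second not called. ZNF473, which contacts the U7 snRNP, was at -4.13 with dCeMM-3 and -3.70 with THZ531, and COIL, the coilin of Cajal bodies, at -3.83 with dCeMM-3. With dCeMM-4 the largest falls were CPSF2, a subunit of the cutting complex, at -2.36, CASP8AP2, a scaffold of histone mRNA processing, at -2.03, and CPSF3, the nuclease of the complex, at -1.56. The part of these changes in the histone levels was not tested.

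Histone chaperones, which carry histones to DNA, were mixed. Of 15, all tested, 3 were higher and 9 lower with dCeMM-2, 3 and 10 with dCeMM-3, 7 and 5 with dCeMM-4, 5 and 7 with THZ531, and 4 and 4 with dCeMM-1 on the TMM scale. Of all genes 37.1% were higher and 41.2% lower with dCeMM-2, 35.9% and 45.1% with dCeMM-3, 32.9% and 35.3% with dCeMM-4, 35.8% and 43.7% under THZ531, and with dCeMM-1 16.5% and 14.8%. NAP1L1, an H2A and H2B chaperone, was called higher by edgeR at 1.504 with THZ531, 0.61 with dCeMM-4, 1.37 with dCeMM-3 and 1.44 with dCeMM-2 on the TMM scale, and against the spike-in it was at -0.34, 0.03, -0.44 and -0.34, lower by the test with dCeMM-3 (log2). HIRA, which deposits H3.3, was at -1.74, -1.27, -1.90 and -2.48 with the same compounds, and CHAF1A, a subunit of the replication-coupled assembly factor, at -1.35, -2.03 and -1.63 with dCeMM-2, dCeMM-3 and THZ531. Against the spike-in 14 were lower with dCeMM-2, 15 with dCeMM-3, 7 with dCeMM-4 and 14 with THZ531, against 83%, 83.7%, 48% and 84.7% of all genes, so the dCeMM-4 count was at the background.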

How the data were processed

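Poly-A enriched RNA was measured in 18 libraries of KBM7 cells, 3 per group. The authors deposited unnormalized gene counts, 1 table a library, together with 92 ERCC and 7 SIRV spike-in rows and 5 HTSeq summary rows, which stayed out of library sizes and tests. HTSeq 0.11.2, Picard, STAR 2.5.2b, Trimmomatic 0.32 and the build GRCh38.p7 are named, without roles, in the submitters' processing notes. The strand setting, the use of molecular identifiers and the annotation release counted are not given in the sources used here. Of 58051 identifiers 57447 matched GENCODE 29, which supplied symbols, lengths and structures, and 604 did not.

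R 4.3.3 with edgeR 4.0.16 (limma 3.58.1) was used to fit the counts. A minimum count of 10 in filterByExpr left 15055 genes, and a robust quasi-likelihood model had 1 coefficient per group and 12 residual degrees of freedom. Libraries were scaled by TMM or by spike-in counts. Adjusted p-values cover all tested genes of a comparison, with a threshold of 0.05. The model was also run on simulated data, in which a small share of genes changed in the THZ531 group, up and down alike. That simulation held no shift across all genes, so it could not check the choice of scale. Members and lists were chosen with earlier results of these data known. Alternatives were DESeq2 1.42.0 and its size factors, other filters, left-out libraries, ERCC or SIRV alone and the replicate number as a block.

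Named members are, per compound, up to 6 called rises and 6 called falls with at least 5 CPM in the higher group and no overlap with DMSO, up to 4 in each direction per pair of compounds, the 2 best covered genes per class, and HIST4H4, HIST1H4C and HIST1H3G. From the other lists, up to 3 rises and falls per compound were taken by smallest adjusted p. Others were named after their values were seen. Counting error alone is covered by bounds from counts. One gene of the marker lists is not reported here.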

Additional observations from a re-analysis of the deposited data

How the results depend on the processing

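Of 448 alternatives of the named log2 fold changes with all libraries kept, 440 kept direction and call, 8 lost the call and 0 reversed. Of 1350 with a library left out, 1320 kept both, 28 lost the call and 2 reversed: HIST1H4C with dCeMM-1 ranged from -0.022 without dCeMM-1 replicate 2 to 0.44, and HIST1H3G with dCeMM-1 from -0.012 without DMSO replicate 2 to 0.34, neither of them called. Of 208 alternatives of the numbers of called members, 185 stayed within 1.5 times.

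On the TMM scale, members lower with dCeMM-1 numbered 1 in place of 0 with DESeq2 size factors or a minimum count of 30. Members lower with dCeMM-3 numbered 0 in place of 1 with DESeq2, its size factors, a minimum count of 30, only the groups compared, or without members that overlap another gene. Members higher with dCeMM-4 numbered 18 with DESeq2 size factors and 17 with DESeq2 in place of 10. Members lower with dCeMM-4 numbered 1 with no filter or only the groups compared and 0 with DESeq2 or without overlapping members, in place of 2. Members lower with THZ531 numbered 1 with no filter. Members higher with dCeMM-2 than with dCeMM-3 numbered 1 with DESeq2, its size factors or without members that share windows, and 4 with no filter, in place of 2.

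On the spike-in scale, without overlapping members 1 was higher with dCeMM-1 in place of 2, 12 lower with dCeMM-3 in place of 19 and 1 lower with dCeMM-4 in place of 4, and with no filter 2 were higher with dCeMM-4 in place of 4. Leaving out members lowers such counts by construction, and the cause of the other changes was not tested. Without mitochondrial genes the summed shares were 493, 611 and 483 CPM with dCeMM-2, dCeMM-3 and THZ531. With spike-in counts as the denominator the ratios to DMSO were 0.723, 0.793, 1.03 and 0.669 with dCeMM-2, dCeMM-3, dCeMM-4 and THZ531. Removing members that share windows, scaling by ERCC or SIRV alone, and the filters, DESeq2 and left-out libraries for single genes on the spike-in scale were chosen after seeing the data.

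With 1 library left out, the members higher on the TMM scale numbered 5 to 9 for dCeMM-1 against DMSO, 26 to 32 for dCeMM-2 against DMSO, 29 to 34 for dCeMM-3 against DMSO, 9 to 15 for dCeMM-4 against DMSO, 26 to 30 for THZ531 against DMSO, 1 to 4 for dCeMM-2 against dCeMM-3, 24 to 30 for dCeMM-2 against dCeMM-4 and 26 to 29 for dCeMM-3 against dCeMM-4. With 1 library left out, the members lower on the TMM scale numbered 0 to 2 for dCeMM-1 against DMSO, 0 for dCeMM-2 against DMSO, 0 to 1 for dCeMM-3 against DMSO, 1 to 2 for dCeMM-4 against DMSO, 0 to 2 for THZ531 against DMSO, 9 to 12 for dCeMM-2 against dCeMM-3, 0 for dCeMM-2 against dCeMM-4 and 0 for dCeMM-3 against dCeMM-4. With 1 library left out, the members higher on the spike-in scale numbered 1 to 4 for dCeMM-1 against DMSO, 4 to 5 for dCeMM-2 against DMSO, 4 to 6 for dCeMM-3 against DMSO, 1 to 5 for dCeMM-4 against DMSO and 5 to 6 for THZ531 against DMSO. With 1 library left out, the members lower on the spike-in scale numbered 0 for dCeMM-1 against DMSO, 17 to 23 for dCeMM-2 against DMSO, 13 to 21 for dCeMM-3 against DMSO, 2 to 8 for dCeMM-4 against DMSO and 21 to 26 for THZ531 against DMSO. The summed shares ran from 266 to 301 with dCeMM-1, 446 to 477 with dCeMM-2, 497 to 558 with dCeMM-3, 281 to 305 with dCeMM-4, 430 to 439 with THZ531 and 209 to 237 with DMSO, in CPM.

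Same-numbered libraries of different groups did not deviate together: 6 of 24 pairs had a correlation over 0.1, within -0.188 to 0.186. With the replicate number as a block, 7 members were higher with dCeMM-1 in place of 8 and 4 higher with dCeMM-2 than with dCeMM-3 in place of 2. DMSO replicate 3 was shallow, and without it 6, 30, 32 and 10 members were higher with dCeMM-1 to dCeMM-4, in that order, and 26 with THZ531. The 31 untested genes lay below the count limit, and the part of depth, shared windows and poly-A enrichment in that was not tested.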

Other observations

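The clusters also hold 19 annotated HIST genes that are not protein-coding, of which 10 had 0 counts and 2 were tested. HIST2H2BC, a transcribed pseudogene of class H2B, averaged 5.18 CPM with dCeMM-1, 7.78 with dCeMM-2, 9.33 with dCeMM-3, 6.39 with dCeMM-4 and 10.5 with THZ531, against 2.85 CPM with DMSO. It was called higher in each comparison on the TMM scale, at log2 fold changes of 0.91, 1.48, 1.78, 1.22 and 1.93 by edgeR. Against the spike-in it was called with dCeMM-1 (0.97, adjusted p = 0.0243) and dCeMM-4 (0.67, adjusted p = 0.0322). HIST1H3PS1, a pseudogene, was called higher with dCeMM-2 (0.88, edgeR adjusted p = 0.0484) and THZ531 (0.95, adjusted p = 0.0294) on the TMM scale. Against the spike-in it was at -0.87 and -0.88 with these, not called, and lower with dCeMM-3 (-1.19, adjusted p = 0.0213 by edgeR). Reads of pseudogenes and their parent genes may be exchanged.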
